A study of Drosophila melanogaster with 12 samples.

Results

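The regions described here are 3′ ends of the fly genes that spread their mRNA over several ends. A 3′ end is a cluster of polyadenylation-primed reads, and its gene is given by the prefix of the cluster's name. The regions were chosen by the summed counts of the 4 input libraries: all genes with at least 400 such counts and at least 3 clusters each holding 10% or more of them were taken, and the regions are those clusters. They were 3452 clusters of 1065 genes, out of 56392 clusters of 10422 genes, of which 5975 genes reached 400 input counts. The libraries came from adult Drosophila melanogaster heads and were made by 3′-end sequencing of RNA: 4 Pum xRIP libraries, 4 control xRIP libraries and 4 inputs. Pum xRIP is an anti-Flag immunoprecipitation after UV cross-linking from pumFlag flies, in which the endogenous pum gene carries a C-terminal Flag-HA tag. Control xRIP is the same precipitation from w1118 flies without a tag. Flies were raised at 25 °C, males and females were used in equal amounts, and the labels give every sample the genotype wild type and the tissue adult head, without an exact age. The inputs are unprecipitated head RNA, in columns named pum, w118, fne and rbp9. The titles of 2 of the 4 input samples call them mixed genotype. The fne and rbp9 columns could be matched to the input group but not to 1 sample each, so what genotypes they mix is not given in the sources used here.

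Most Drosophila genes can end their mRNA at more than 1 polyadenylation site. The choice among sites sets the length of the 3′ untranslated region (3′UTR), and in neurons many genes use a distal site and carry a long 3′UTR. Pumilio (Pum) belongs to the PUF family, whose members bind RNA. It recognises the Pumilio response element in 3′UTRs and represses or destabilises its targets. Ends that differ in 3′UTR length can therefore differ in the response elements they carry.

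The element was searched as TGTANATA on the mRNA strand, in each gene's longest annotated 3′UTR. It was present in 78 of 89 member genes that were higher in Pum xRIP (87.6%), in 323 of 816 tested member genes (39.6%) and in 1265 of 4628 tested genes overall (27.3%). The 3′UTRs had median lengths of 3062, 1063 and 403 nt in these 3 sets, and the element occurred 0.636, 0.420 and 0.484 times per kb. The sets are nested and their lengths differ, so the shares are a description. An element is shown for 6 genes with ends that were higher in Pum xRIP and, last, for CG17754, which had an end that was lower. Coordinates are on the dm6 genome, the sequence is from the RefSeq copy of that assembly, and capitals mark the element.
cac, chrX:11934050-11934073, minus strand: aaaacatgTGTAGATAtaatatat
Tob, chrX:16074792-16074815, minus strand: cttacctaTGTAAATAaataaatt
scrt, chr3L:3993308-3993331, plus strand: gacattcaTGTACATAagtggcag
dpr19, chr2L:10379731-10379754, plus strand: tgtacaacTGTAAATAaatattac
Hipk, chr3L:575634-575657, plus strand: ggagcaagTGTACATAatacgcat
bru3, chr3L:13524315-13524338, minus strand: atttatatTGTATATAgtataaag
CG17754, chrX:9254682-9254705, plus strand: catttactTGTAGATAttaaggaa
The 3′UTR of Tob held 12 elements, those of cac, dpr19 and bru3 held 3 each, that of scrt held 2, and those of Hipk and CG17754 held 1 each. In Tob and dpr19 the bases shown also contain AATAAA, the canonical polyadenylation signal, which overlaps the element. Syx1A, TP53INP and nAChRbeta1 had no match in their longest annotated 3′UTR. A match describes the sequence and is not a measured binding site.

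The depth differed between the groups. The Pum xRIP libraries held 3050717 to 5051009 counts, the control xRIP libraries 3342790 to 4485996, and the inputs 9563433 to 13726254. Both kinds of xRIP library held neuronal and photoreceptor RNA, but their composition differed. Summed over elav, nSyb, Syt1 and brp, neuronal markers reached 3989 to 4498 CPM (counts scaled to the library total) in Pum xRIP, against 321 to 531 in control xRIP and 1744 to 2375 in the inputs. The study names Syt1 and brp as Pum targets. They averaged 1813 and 1314 CPM in Pum xRIP, 187 and 58.3 CPM in control xRIP and 676 and 199.5 CPM in the inputs. By contrast, nSyb averaged 955, 192 and 996 CPM, and elav averaged 196, 19.4 and 134 CPM, in the same order. The 2 glial markers reached 594 to 1211, 96.5 to 189 and 212 to 425 CPM, with 1 of the 2 at 0 in the control xRIP. Photoreceptor markers, which mark the head, reached 9249 to 12050 CPM in Pum xRIP, 5418 to 7580 CPM in control xRIP and 17060 to 26080 CPM in the inputs. Muscle markers ran the other way. They reached 67.2 to 3207 CPM in Pum xRIP, against 7697 to 19280 CPM in control xRIP and 144 to 1659 CPM in the inputs. That sum was mostly TpnC25D, at 29.5 to 3131, 7550 to 19080 and 24.15 to 1407 CPM in the same order. Mhc averaged 43.6 CPM in Pum xRIP, 123.7 CPM in control xRIP and 195 CPM in the inputs, and Act88F averaged 0.0495, 88.3 and 87.6 CPM. The 2 male germ line markers were at 0 to 2.98 CPM in Pum xRIP, with 1 of the 2 at 0, against 201 to 508 CPM in control xRIP and at 2.50 to 82.3 CPM in the 4 inputs. The part of these differences in the results below was not tested. In whole-head RNA, fewer cells of a type and less RNA per cell cannot be told apart.

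In the input, which chose the regions, ends of the same gene shared its counts unequally. Of the 1065 genes, 834 had 3 such ends, 206 had 4, 24 had 5 and 1, Son, had 6. The member ends held a median of 90.0% of their gene's input counts, and the most used end held a median of 44.5% (14.4 to 77.9%). Summed input counts per gene had a median of 1522 and ran from 400 to 281560, against 1632 for the other 4910 genes that reached 400 counts. At the edge of the rule, 219 member ends held 10 to 11% of their gene's counts and 110 further clusters of the same genes held 9 to 10%. Likewise, 38 member genes had fewer than 450 counts, and 51 further genes with at least 350 but fewer than 400 counts met the share rule. Some ends are close neighbours: 879 of 2387 adjacent pairs (36.8%) had consecutive numbers, so no other cluster lay between them.

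The shares varied between the inputs by more than counting allows. The SD of an end's share over the 4 inputs had a median of 9.00 percentage points, where the median expected from counting was 2.18. The pum input stood apart. It had no count at 187 member ends, against 65 in fne, 90 in rbp9 and 46 in w118. Its most used end was that of the pooled input in 65.5% of genes, against 78.1 to 82.0% in the other 3 inputs. Pairs of inputs named the same most used end in 52.6 to 71.4% of genes. The rule was therefore also applied without the pum input, with at least 300 counts from the other 3. This gave 3507 ends of 1081 genes, of which 3053 ends and 958 genes were shared with the first choice.

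The member genes were long and had long 3′UTRs. Their median length was 7083 bases, against 2788 in the other genes with 400 input counts, and their longest annotated 3′UTR had a median of 915 nt, against 300 nt. The annotation lists a median of 2 distinct ends for a member gene, against 1 for the others. Still, 403 of 1057 annotated member genes (38.1%) had only 1 annotated end, against 68.2% of the others. AATAAA lay within 50 nt before the most proximal annotated end in 31.2% of the 654 member genes with at least 2 annotated ends, and before the most distal one in 58.0%. In the 1549 other such genes these shares were 41.0% and 49.3%. Of the member genes, 1039 were protein coding, 11 were non-coding RNAs, 4 pseudogenes and 3 rRNAs. They lay on the X chromosome in 21.1% and on chromosome 4 in 2.18%, against 16.3% and 0.944% of the others.

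Ends were ordered by cluster number. Among 2241 plus-strand genes with at least 4 clusters, the most used cluster had the highest number in 558 and the lowest in 158. Among 2306 minus-strand genes it had the highest in 173 and the lowest in 530. Numbers therefore appear to run along the chromosome, and ends are called proximal or distal on this basis, without coordinates of their own.

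In the xRIP libraries, far fewer of these ends were seen, and each gene was carried by fewer of them. Pum xRIP libraries detected 1109 to 1851 of the 3452 ends (mean 1461 ± 304, SD, n = 4; 42.3%), control xRIP libraries 713 to 1082 (876 ± 184, n = 4; 25.4%) and inputs 3265 to 3406 (3355 ± 62.6, n = 4; 97.2%). All 4 Pum xRIP libraries detected more ends than any control xRIP library. Detection was not counted over all clusters, so these shares describe the members and do not set them apart from other clusters. At 20 or more counts per gene, the most used cluster, member or not, held a median of 68.3, 74.2, 60.6 and 69.3% of a gene's counts in Pum xRIP 1 to 4. The medians were 99.7, 100, 88.9 and 84.0% in control xRIP 1 to 4, and 46.4, 48.2, 47.5 and 45.8% in the fne, pum, rbp9 and w118 inputs. The 3 groups did not overlap in this measure. The values set against input are given as a description, since the input counts chose the ends.

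**Figure D1:**
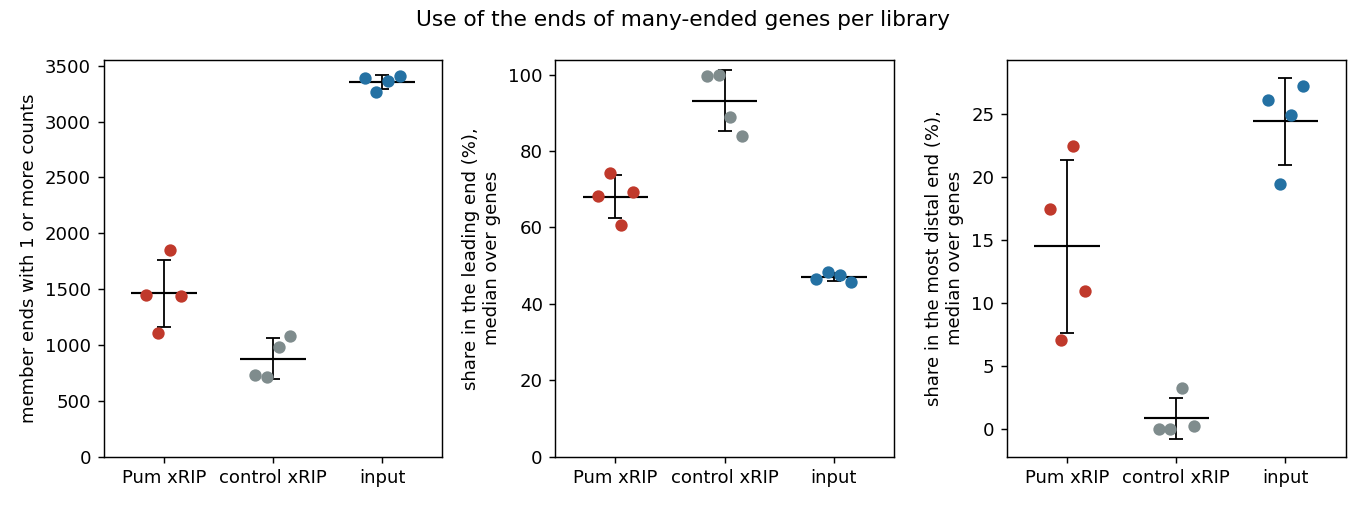
Use of the 3452 member ends per library. Points are the 4 libraries of Pum xRIP, control xRIP and input, and bars are the mean ± SD; the panels show the number of ends with at least 1 count, the median share (%) of a gene's counts at its most used cluster, and the median share (%) at its most distal end. Pum xRIP libraries lie between control xRIP and input in the first 2 panels.

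Depth differed between the groups, so ends were also counted among genes with at least 100 counts. Such genes showed 1 end or none of theirs in 27.6, 51.1, 18.1 and 28.4% of cases in Pum xRIP 1 to 4, in 52.9, 54.3, 38.8 and 37.9% in control xRIP 1 to 4, and in 0.0978 to 0.308% in the inputs. The Pum and control xRIP libraries overlapped here. Pum xRIP 2 lay within the range of the controls. With each gene brought to 100 counts by formula, the mean number of ends was 1.79 to 2.40 in Pum xRIP, against 1.69 to 2.01 in control xRIP and 3.14 to 3.20 in the inputs. The xRIP libraries also differed among themselves in which end they showed. The most used end matched the pooled input in 41.2 to 48.6% of genes in Pum xRIP and in 36.5 to 42.5% in control xRIP. Pairs of Pum xRIP libraries named the same end in 34.9 to 41.1% of genes, pairs of control xRIP libraries in 33.7 to 38.5%, and a Pum with a control library in 24.9 to 34.4%.

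The use of distal ends depended on the summary taken. The median share at the most distal end was 17.5, 7.07, 22.5 and 11.0% in Pum xRIP 1 to 4, 0, 0, 3.29 and 0.244% in control xRIP 1 to 4, and 26.1, 19.5, 24.9 and 27.3% in the fne, pum, rbp9 and w118 inputs. Each Pum xRIP median exceeded each control xRIP median. Medians at the most proximal end were low in the xRIP libraries too. They were 0, 0, 4.77 and 2.34% in Pum xRIP 1 to 4, 0 in every control xRIP library, and 19.1 to 25.8% in the inputs. For the most distal end, the mean over genes was also taken in place of the median, an alternative chosen after these values were seen. It gave 29.1% in Pum xRIP, against 28.1% in control xRIP and 28.8% in the inputs. Pooled over genes, distal ends took 36.7% of member counts in Pum xRIP, against 35.4% in control xRIP and 33.1% in the inputs, and the most proximal ends took 26.5, 28.8 and 30.9%.

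All clusters of the member genes, member ends or not, made up 13.5, 12.6, 12.7 and 12.6% of all counts in Pum xRIP 1 to 4. They made up 5.17, 5.16, 5.56 and 5.22% in control xRIP 1 to 4 and 9.14 to 10.6% in input. Each Pum xRIP library lay above every control xRIP library and every input. Of the 3452 ends, 594 were seen in all 4 Pum xRIP libraries and 211 in all 4 control xRIP libraries. There were 151 ends seen in all 4 Pum xRIP and in no control xRIP library, 3 with the reverse, and 621 (18.0%) in no xRIP library. The same counts were not taken over all clusters, so they describe the members and do not set them apart from other clusters.

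Ends were then compared between Pum xRIP and control xRIP, which asks which 3′ ends were recovered with the tagged protein beyond the untagged precipitation. With edgeR's quasi-likelihood test, an adjusted p below 0.05 and a log2 fold change beyond 1, 182 of 1025 tested member ends (17.8%) were higher in Pum xRIP and 3 (0.293%) were lower. Over all 5757 tested clusters, 9.5% were higher and 2.28% lower, and over the 4732 clusters that are not members 7.71% were higher. The median log2 fold change was 1.71 over the tested member ends and 0.41 over all tested clusters. Setting ends absent from a whole group to their bound could not move these medians, since such ends stayed far to one side of them. Another scaling of the libraries raised the median of all clusters by 0.22. The 182 ends belonged to 134 genes: 97 genes had 1 such end, 27 had 2, 9 had 3 and Hipk had 4. The filter on low counts removed 2427 member ends. It asked for enough counts in at least 4 libraries, so an end seen only in the Pum xRIP libraries had to differ to be tested at all: all 128 tested member ends with 0 counts in the 4 control xRIP libraries were called higher. A further 18 of the 182 had counts in 1 control library and 36 in 2 or more. The matching number is not given for the other clusters. The shares of 17.8, 9.5 and 7.71% therefore include calls that follow from the filter, to an extent not compared. The count fell when a library was left out. Leaving out any Pum xRIP library brought the 182 to 56 without the first, 76 without the second, 62 without the third and 59 without the fourth, and leaving out control xRIP 1 or 2 gave 120 or 115. A fit with the inputs gave 361.

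**Figure D2:**
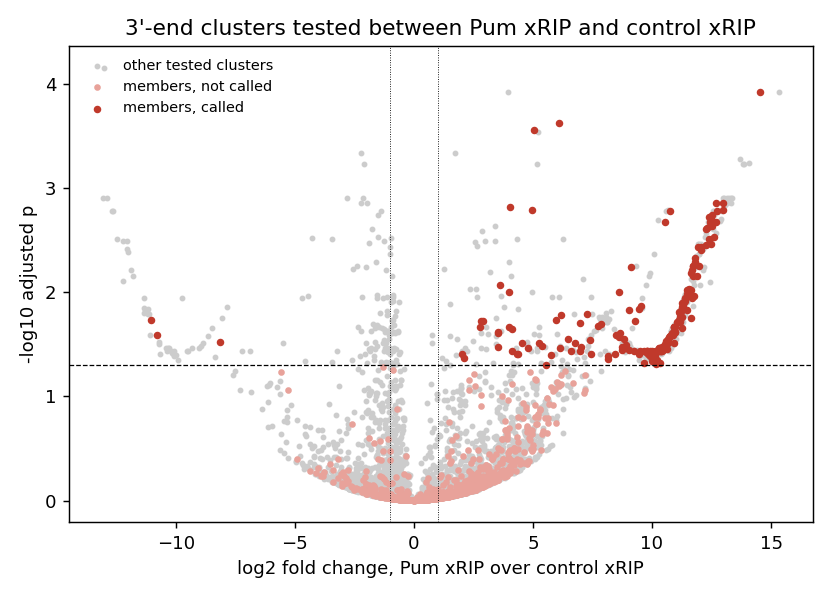
Pum xRIP against control xRIP for the tested clusters, with log2 fold change on the x axis and −log10 of the adjusted p on the y axis. Member ends are set against all other clusters; 182 member ends lie in the upper right and 3 in the upper left, and the arcs at the far sides are clusters with 0 counts in a whole group, whose fitted fold change is no measured size.

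In CPM, the lowest Pum xRIP library exceeded the highest control xRIP library at 313 of the 1025 member ends (30.5%), against 19.0% of all tested clusters. The reverse held at 23 ends (2.24%), against 6.44%. Of the 313 ends, 128 had 0 counts in every control xRIP library. Such ends passed the filter on low counts only with enough counts in every Pum xRIP library. Their separation therefore follows from the filter and is no separate observation. The same limit holds for ends absent from a whole group in the reverse and among all tested clusters. By position along the gene, of the tested member ends, 43 of 265 most proximal ends (16.2%), 77 of 376 ends in between (20.5%) and 61 of 376 most distal ends (16.2%) were higher, with median log2 fold changes of 1.34, 1.92 and 1.80; the differences between positions were not tested. Of all member ends at each position, 25.1% of proximal, 28.7% of middle and 35.6% of distal ones were tested.

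Summed over all clusters of a gene, 90 of 839 tested member genes (10.7%) were higher in Pum xRIP and 4 (0.477%) were lower, where 5.65% and 2.74% of all 4776 tested genes were. The same filter was used for genes, so a gene with 0 counts in a whole group was tested only through the other group. Pka-C1, Ets65A and bab2, with 0 counts in every control xRIP library, were among the 90. The number of such genes among the 90 or among all tested genes is not given here. Without Pum xRIP 1, 3 or 4 the 90 became 55, 55 or 54, and it was 149 in a fit with the inputs and 159 with DESeq2. The 4 lower genes were bw, ND-B22, Acp24A4 and CG44242, named here after their values were seen. The gene bw, an eye-pigment transporter subunit, had 0, 0, 2 and 0 counts in Pum xRIP 1 to 4 against 621, 201, 439 and 169 in control xRIP 1 to 4, and 134 to 973 in the inputs. ND-B22, a subunit of mitochondrial complex I, had 1103 to 2455 counts in Pum xRIP and 2413 to 6523 in control xRIP (log2 fold change −1.29 ± 0.35, SE; edgeR adjusted p = 0.0393).

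The 6 ends with the largest fitted change lay in cac, Tob, Syx1A, scrt, dpr19 and dpr1 and had no count in any control xRIP library. Their enrichment is given as a lower bound from 3 counts over the 4 control libraries. That bound covers counting error only and not the spread between libraries. The p-values are from edgeR's quasi-likelihood test with Benjamini-Hochberg adjustment over all clusters. An end with 0 counts in a whole group passed the filter on low counts only through the other group. Its adjusted p is therefore no separate evidence of a difference, here and for all such ends named below. cac encodes the voltage-gated calcium channel of presynaptic terminals (X, 11931280 to 11985087, minus strand). Its end 21, the most proximal member end, had 1751, 3900, 3979 and 2923 counts in Pum xRIP 1 to 4, 0 in each control xRIP library, and 896, 1070, 917 and 1237 in the fne, pum, rbp9 and w118 inputs. It was at least 3806-fold higher in Pum xRIP (edgeR adjusted p = 0.00012). The most distal end 9 had 1121, 1677, 1991 and 1977 counts against 30, 0, 0 and 0 and was also higher (log2 fold change 7.74 ± 1.73, SE, adjusted p = 0.0211). End 11 between them had 2165, 2816, 4279 and 2584 against 0, 159, 0 and 0 (6.11 ± 1.94, adjusted p = 0.0756) and missed the threshold. Its only control counts were in control xRIP 2. Pum xRIP used the 3 ends much as the input did: ends 21, 11 and 9 held 34.1, 32.2 and 18.4% of the gene's counts in Pum xRIP and 30.1, 40.6 and 11.6% in input. No control xRIP library had counts at more than 1 of these ends.

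Tob encodes a protein of the BTG/Tob family (X, 16074717 to 16091495, minus strand). Its middle end 23 had 1189, 1168, 1124 and 519 counts in Pum xRIP 1 to 4, 0 in control xRIP, and 284, 297, 241 and 451 in the fne, pum, rbp9 and w118 inputs, at least 1213-fold higher (adjusted p = 0.0014). Proximal end 41 (1285, 1281, 1738 and 2123 counts against 0, 0, 32 and 0) and distal end 17 (845, 721, 1714 and 1184 against 0, 26, 58 and 64) were higher as well, with log2 fold changes of 7.40 ± 1.80 and 4.81 ± 1.23 (SE; adjusted p = 0.029 and 0.034). All 3 ends were higher, and no Pum xRIP library overlapped the controls at any of them.

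Syx1A, which encodes the presynaptic SNARE protein syntaxin (3R, 24101600 to 24105763, minus strand), relied on its distal end. End 8 had 1232, 610, 1199 and 770 counts in Pum xRIP 1 to 4, 0 in control xRIP, and 809 to 1564 in the inputs, at least 1155-fold higher (adjusted p = 0.00162). It held 74.7% of the gene's counts in Pum xRIP and 71.2% in input. Middle end 27 had 125, 103, 33 and 160 counts against 0 throughout and was at least 128-fold higher (adjusted p = 0.0394). The proximal end 29 did not pass the test: 6, 247, 162 and 50 counts in Pum xRIP against 0, 0, 0 and 78 in control xRIP (2.34 ± 2.44, adjusted p = 0.785). Control xRIP 4 lay within the range of the Pum xRIP libraries there.

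scrt encodes a neuronal zinc-finger transcription factor (3L, 3983896 to 3994003, plus strand). Of its 4 member ends, end 38 had 1066, 868, 618 and 687 counts and the most distal end 52 had 383, 440, 1233 and 915 in Pum xRIP 1 to 4, with 0 in every control xRIP library. They were at least 982-fold and at least 901-fold higher (adjusted p = 0.00165 and 0.0023). The most proximal end 16 was higher too (533, 286, 334 and 59 counts against 1, 7, 1 and 0, adjusted p = 0.0332). End 49 had 711, 1085, 716 and 934 counts against 0, 1, 51 and 55 (4.88 ± 1.47, adjusted p = 0.0585), a clear separation of the libraries that missed the threshold.

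The genes dpr19 and dpr1 encode immunoglobulin-domain proteins of the neuronal surface. In dpr19 all 3 member ends were higher and had 0 counts in control xRIP: end 9 had 807, 915, 1401 and 272 counts in Pum xRIP 1 to 4 (at least 1029-fold, adjusted p = 0.0021), end 7 had 249, 571, 341 and 169, and end 1 had 342, 252, 336 and 244. In dpr1 the distal end 11 had 644, 1163, 881 and 717 counts against 0 throughout (at least 1032-fold, adjusted p = 0.0014), while the proximal end 7 was seen only in Pum xRIP 1 and 4, with 47 and 7 counts, and was not tested. That end held 12.3% of the gene's input counts and 0.751% of its Pum xRIP counts.

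The 3 ends that were lower in Pum xRIP lay in Acp24A4, CG17754 and sgll. Acp24A4, a male accessory gland protein gene, had no count at any of its 3 ends in Pum xRIP. Its end 4 had 378, 277, 148 and 201 counts in control xRIP 1 to 4 and 81, 0, 0 and 255 in the fne, pum, rbp9 and w118 inputs, at least 368-fold lower in Pum xRIP (adjusted p = 0.0183). The male germ line markers were higher in control xRIP too, and their part in this result was not tested. In CG17754, the most distal end 8 had 0 counts in every Pum xRIP library against 261, 247, 237 and 77 in control xRIP, at least 301-fold lower (adjusted p = 0.0257), although it held 50.7% of the gene's input counts. Its middle end 6 had 34, 144, 190 and 10 counts in Pum xRIP and 90, 0, 10 and 0 in control xRIP (1.66 ± 2.19, adjusted p = 0.854). The gene as a whole did not pass the test (−1.57 ± 1.22, adjusted p = 0.668), but its use of ends did (edgeR diffSpliceDGE, adjusted p = 0.00985). In sgll, which encodes pyridoxine 5′-phosphate oxidase, proximal end 1 had 1, 2, 0 and 0 counts in Pum xRIP against 869 in control xRIP in all, with up to 332 in a library and no overlap. The ratio was 0.00314 (95% exact interval from counting alone 0.000646 to 0.00921; adjusted p = 0.0297), and the distal end 3 had 117, 0, 65 and 149 against 0, 0, 0 and 34. With 1 library fewer, these 3 calls often missed the threshold at nearly the same fitted change. Acp24A4 lost it without control xRIP 1, CG17754 without any of Pum xRIP 1, 3 and 4 and control xRIP 1, 2 and 3, and sgll without any library other than control xRIP 2, while the fitted log2 fold changes stayed at −11.2 to −10.8, −11.06 to −10.64 and −8.71 to −7.76.

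**Figure D3:**
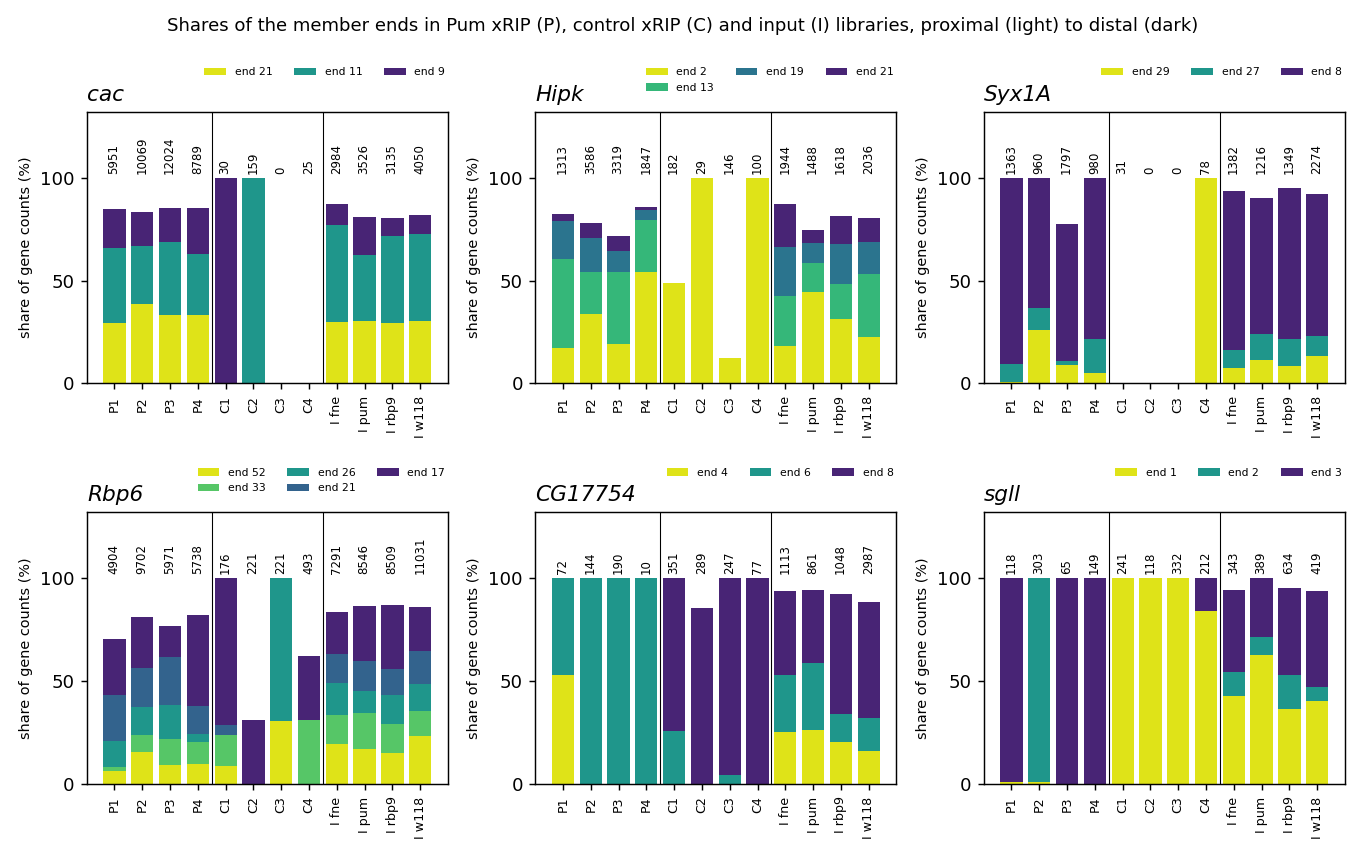
Share (%) of all of a gene's counts at each member end per library for cac, Hipk, Syx1A, Rbp6, CG17754 and sgll, with Pum xRIP (P1 to P4) left of control xRIP (C1 to C4) and the inputs (I). The gene's count in that library is printed above each bar; in CG17754 the distal end 8 is absent from all 4 Pum xRIP bars and present in all 4 control xRIP bars.

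Use of ends was tested per gene, as a change in the ends relative to one another. Of 314 member genes with at least 2 tested clusters, 43 (13.7%) differed between Pum xRIP and control xRIP at an adjusted p below 0.05, against 9.83% of all 1038 genes tested, and 78 did at an unadjusted p below 0.05. A control library that holds 1 or no end of a gene enters this test too. The test also ran on the clusters left by the filter on low counts. An end with 0 counts in a whole group therefore entered it only through the other group. How many of the 43 rest on such ends is not given here. Only 24 of the 43 had at least 20 counts in 3 or more libraries of each kind (of 234 such genes tested, a limit chosen after the data were seen), and 8 had that depth in at most 1 control library. Without Pum xRIP 1, 3 or 4 the 43 became 25, 28 or 27. The count also rested on the processing. It was 8 with a replicate block, 243 without the filter on low counts and 413 in a fit with the inputs. Of the 43, 22 were also higher as a gene and 0 lower. The pooled share of the distal end was higher in Pum xRIP in 29 and lower in 14.

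The smallest p for use of ends was at Hipk, a homeodomain-interacting protein kinase (3L, 543060 to 581099, plus strand; adjusted p = 5.4e-05). End 2, the most proximal, had 225, 1212, 628 and 1001 counts in Pum xRIP 1 to 4 against 89, 29, 18 and 100 in control xRIP 1 to 4 (3.55 ± 0.83, adjusted p = 0.0246). The other 3 ends, 13, 19 and 21, had 466 to 1170, 93 to 594 and 26 to 263 counts in Pum xRIP and 0 in every control xRIP library, and were at least 891-fold, 384-fold and 173-fold higher. All 4 ends were higher, and among them control counts were found at the proximal end alone. That end held 30.5% of the gene's counts in Pum xRIP, against 51.6% in control xRIP and 27.9% in the inputs.

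Of the other 7 genes with the smallest p, all but TP53INP had at least 1 end that was higher in Pum xRIP with 0 counts in every control xRIP library. In orb2, a CPEB-family regulator of translation, the middle end 21 had 808, 765, 861 and 335 counts in Pum xRIP 1 to 4 against 0 throughout (at least 839-fold, adjusted p = 0.0023), while the distal end 1 had 41, 0, 211 and 55 against 0, 0, 28 and 42 (adjusted p = 0.824). In bru3, a CELF-family RNA-binding protein, proximal end 46 had 601, 1002, 629 and 555 counts against 0 (at least 845-fold, adjusted p = 0.0019), and distal end 17 had 378, 1398, 435 and 308 against 0, 0, 0 and 1 (adjusted p = 0.0021). Its end 43 had 283, 437, 1338 and 434 counts against 0, 219, 125 and 36 and missed the threshold (2.49 ± 1.37, adjusted p = 0.399). In jeb, the secreted ligand of the Alk receptor, end 30 was at least 487-fold higher (302, 438, 409 and 458 counts against 0, adjusted p = 0.00652). In Ca-alpha1T, a T-type calcium channel, end 14 had 203, 206, 301 and 490 counts against 0 (at least 364-fold, adjusted p = 0.0145). Its end 12 had 478, 2792, 526 and 1285 against 0, 0, 13 and 14 (7.25 ± 1.52, adjusted p = 0.0162). TP53INP, the remaining gene, had counts at every member end in every xRIP library. Its 3 member ends held 14.5, 34.3 and 41.1% of the gene in Pum xRIP and 7.88, 36.9 and 23.8% in control xRIP, none of the 3 passed the test, and neither did the gene (0.60 ± 0.44, adjusted p = 0.620). The test of use also took in 2 clusters that are not members. Of these, end 18 was lower, with 0 counts in every Pum xRIP library against 64, 19, 43 and 101 in control xRIP 1 to 4 (at least 83.2-fold lower, adjusted p = 0.0304), and end 19 held 3.48% of the gene in Pum xRIP and 22.1% in control xRIP (−1.72 ± 1.43, adjusted p = 0.680).

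The genes with the most ends were mostly too shallow in the xRIP libraries to compare. Son, a splicing factor with 6 ends and 406 input counts in all, had counts at 2 ends in Pum xRIP (196 at end 2 in Pum xRIP 2 and 28 at end 3 in Pum xRIP 1) and at 1 in control xRIP (75). No end of gpp, a histone H3 methyltransferase, of kirre, an adhesion protein, or of CG45263 passed the test. Rbp6, of the Musashi family of RNA-binding proteins (3L, 17058774 to 17238212, minus strand), is the deep one. It was higher as a gene (4.30 ± 0.40, adjusted p = 8.83e-05), and its 5 ends held 27.4, 19.3, 11.8, 8.81 and 11.0% of its Pum xRIP counts from end 17 to end 52, against 24.8, 14.6, 13.2, 14.3 and 18.8% in input. Ends 17 and 21 were higher: end 17 had 1354, 2385, 916 and 2547 counts against 126, 68, 0 and 155 (4.36 ± 1.19, adjusted p = 0.0391), and end 21 had 1078, 1837, 1391 and 783 against 8, 0, 0 and 0 (9.13 ± 1.53, adjusted p = 0.0057). Ends 26, 33 and 52 gave 3.96 ± 2.04, 3.58 ± 1.76 and 4.73 ± 1.71 and did not pass. Its use of ends did not pass either (adjusted p = 0.127).

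Among the 5 genes with the most input counts, IA-2 alone was higher. IA-2 encodes a tyrosine phosphatase-like protein of secretory vesicles (2L, 1008378 to 1048053, minus strand). End 46 had 12039, 11371, 15370 and 11174 counts in Pum xRIP 1 to 4 against 210, 150, 254 and 72 in control xRIP 1 to 4 (6.08 ± 0.50, adjusted p = 0.000239). Ends 64 and 74 gave 5.05 ± 0.43 and 4.94 ± 0.62 (adjusted p = 0.000274 and 0.00162). No library overlapped between the groups at these ends. The distal end 46 held 31.0% of the gene's counts in Pum xRIP, against 17.5% in control xRIP and 25.1% in the inputs, and the use of ends differed (adjusted p = 0.0105). The non-coding RNA lncRNA:noe behaved otherwise: none of its ends 1, 18 and 24 passed the test (−0.23 ± 0.16, 0.14 ± 0.28 and −0.73 ± 0.27), and they held 38.1, 38.0 and 11.0% in Pum xRIP and 39.4, 31.1 and 15.5% in control xRIP. Oda, the ornithine decarboxylase antizyme, and the ribosomal protein gene RpS27 had no end that passed the test. RpS27 passed as a gene by its adjusted p alone (0.0400), with a log2 fold change of −0.60 ± 0.16 that did not reach the threshold of 1. The rRNA pseudogene 28SrRNA-Psi:CR40596 shares its sequence with the rDNA repeats, so its values are uncertain. It had none either.

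Of 31 genes that the study names or shows, 13 were members. Most were picked by the study with these libraries in view, so their direction is no independent evidence, while Ank2 and lola came from another of its data sets. At least 1 end was higher in 7 of them: Sema2b, brp, dnc, orb2, Dop1R1, nAChRbeta1 and nAChRalpha6. In brp, the scaffold of the active zone, distal end 57 had 1495, 3036, 4588 and 2419 counts in Pum xRIP 1 to 4 against 116, 0, 193 and 193 (4.34 ± 1.19, adjusted p = 0.0387) and held 51.6% of the gene in Pum xRIP and 51.9% in input. In dnc, the cAMP phosphodiesterase, end 42 had 237, 238, 729 and 518 counts against 0 (at least 522-fold, adjusted p = 0.00701) and end 37 had 865, 590, 597 and 452 against 1, 0, 0 and 0. In Dop1R1, a dopamine receptor, end 9 had 329, 1031, 1221 and 627 against 0 (at least 973-fold, adjusted p = 0.0018). Subunits of the nicotinic acetylcholine receptor had ends that were called and ends that were not. Their use of ends differed in nAChRalpha6 (edgeR diffSpliceDGE, adjusted p = 0.00985) but did not pass that test in nAChRbeta1 (adjusted p = 0.312). In nAChRalpha6, end 13 had 723, 278, 814 and 696 counts against 0 (at least 761-fold, adjusted p = 0.00308), and proximal end 28, with 89 to 172 counts in each input, had 34 counts in 1 Pum xRIP library only. In nAChRbeta1, proximal end 8 had 1894, 2486, 3111 and 2029 counts against 0, 16, 150 and 48 (5.26 ± 1.30, adjusted p = 0.0305), while distal end 19 had 194, 1092, 310 and 75 against 350, 0, 114 and 119 (1.21 ± 1.44, adjusted p = 0.825). Its end 17 had no count in any xRIP library and was uneven in the inputs, with 823, 0, 732 and 8 counts in fne, pum, rbp9 and w118. No member end passed the test in rut, an adenylyl cyclase, Gug, a corepressor, Sema1a, a transmembrane semaphorin, eag, a potassium channel, Ank2, an ankyrin, or lola, a BTB transcription factor. Among them eag and Sema1a were higher as genes (4.75 ± 1.17 and 6.36 ± 1.42, adjusted p = 0.0277 and 0.0167).

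Member genes of the synaptic list were called most often among the lists. The lists were chosen with earlier results of these data known. The study named several genes of the synaptic list, such as Dop1R1, dnc and brp, as Pum targets from these libraries. Their count is therefore no independent evidence. Of the 22 tested members of the synaptic list, 13 were higher in Pum xRIP and 0 lower. Over all tested members 10.7% were higher and over all tested genes 5.65%, the shares to set beside each list. The median log2 fold change of the 22 was 4.19, against 0.15 over all tested genes and 0.94 over all tested members. The 13 included Rdl, a GABA-gated chloride channel (4.47 ± 0.26, adjusted p = 3.87e-06), unc-13, which primes synaptic vesicles (3.81 ± 0.32, adjusted p = 4.26e-05), the SNARE regulator cpx (3.25 ± 0.45), the potassium channels slo (5.36 ± 1.30) and SK (4.08 ± 1.10), and Sap47 (2.72 ± 0.42). The neuronal markers nSyb and elav, which are not among these genes, averaged 955 and 196 CPM in Pum xRIP against 192 and 19.4 CPM in control xRIP, and their part in this count was not tested. The marker brp is itself one of the 13. The use of ends differed in 10 of 20 tested genes of the list, against 9.83% of all genes tested and 13.7% of the members. In the RNA regulation list, 4 of 17 were higher and 0 lower (median 3.03): Rbp6, bru3, mub (3.27 ± 0.45) and ps (3.42 ± 0.43). The poly(A)-binding protein gene pAbp stood at −0.03 ± 0.42. In the transcription and chromatin list, 7 of 19 were higher and 0 lower (median 2.73), among them the circadian activator Clk (6.72 ± 1.72), Pdp1 (2.52 ± 0.31), chinmo (5.23 ± 1.38), psq (4.90 ± 1.08) and the histone methyltransferase trx (3.02 ± 0.70), and Ets65A and bab2 with 0 counts in all control xRIP libraries. In the signalling list 2 of 12 were higher (rdgB, a phosphatidylinositol transfer protein of photoreceptors, 5.77 ± 1.53, and Pka-C1, the catalytic subunit of protein kinase A, with 0 counts in control xRIP), and in the cytoskeleton and trafficking list 1 of 10, Sema1a. None of 6 energy metabolism genes was higher or lower by edgeR (median 0.12). Of 247 genes on the list of neuronal 3′UTR extensions from earlier work that reached 400 input counts, 114 (46.2%) were members, against 1065 of all 5975 such genes. In the other lists this share ran from 14.3% (energy metabolism) to 48.8% (transcription and chromatin). Of the 106 tested members on the neuronal 3′UTR list, 30 were higher and 0 lower (median 2.93). Their use of ends differed in 12 of 60, against the same 9.83 and 13.7%.

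**Figure D4:**
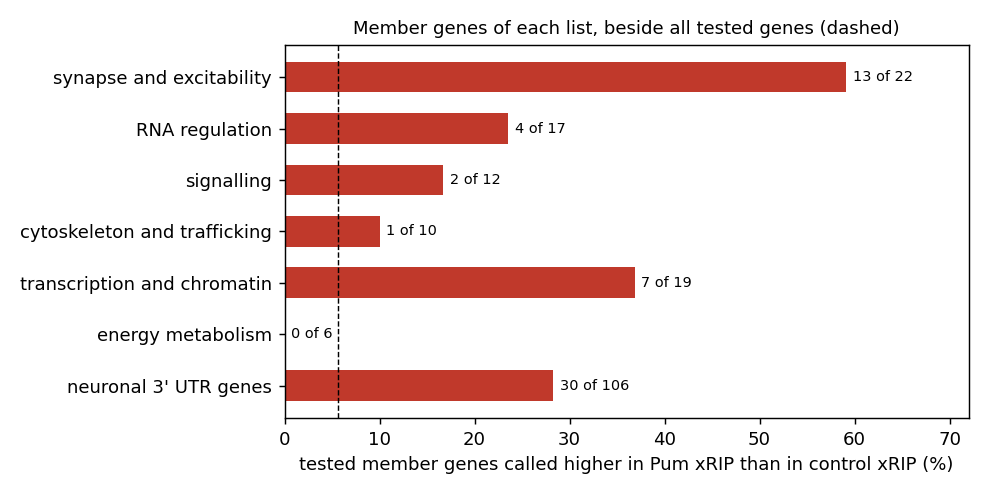
Percent of tested member genes that were higher in Pum xRIP than in control xRIP, by gene list, with the counts beside each bar. The dashed line is the 5.65% of all 4776 tested genes, and over all tested member genes the share was 10.7%. In the lists, 13 of 22 synaptic genes and 0 of 6 energy metabolism genes were higher. The lists were chosen with earlier results of these data known.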

How the data were processed

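RNA from UV-cross-linked heads was precipitated with anti-Flag and sequenced from the 3′ end. As the study's methods describe, the authors trimmed the reads, aligned them to dm6 with STAR v2.6.1b without introns, removed reads primed within A-rich stretches, grew clusters around peaks of signal in or just downstream of genes, and deposited raw counts of reads per cluster and per gene, with no molecular identifiers mentioned. The counts are not normalised. 4 further deposited count tables were not used here. The groups come from the sample titles. Nothing in the labels says whether replicates came from separate flies, so p-values measure the spread between these libraries, which may be technical. Intervals and floors cover counting error only. The members and gene lists were chosen with earlier results of these data known.

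The 8 xRIP libraries were compared with edgeR 4.0.16 (R 4.3.3): TMM scaling, filterByExpr, glmQLFit and glmQLFTest for clusters and for genes, and diffSpliceDGE for the use of ends, with Benjamini-Hochberg adjustment over all features tested. A feature was called at an adjusted p below 0.05 and, for levels, a log2 fold change beyond 1. Errors of fold changes are SE from the fit. Fold bounds put 3 counts over the 4 libraries of the group at 0. DESeq2 1.42.0 was run on the filtered features as an alternative. CPM for overlap between libraries used the TMM sizes of the tested fit, a choice made after the first values were seen. The scripts were tested on simulated data. At the spread of these libraries most large differences are missed, so an end that was not called is not shown to be equal.

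Text names the 6 called member ends with the largest rise and the 6 with the largest fall whose libraries do not overlap (3 fell), the 8 genes with the smallest p for use of ends, the 5 with most ends, the 5 with most input counts and the members among 31 genes the study names or shows. Gene positions and 3′UTRs are from Ensembl 115 (BDGP6.54), bases from the RefSeq copy of Release 6. 8 member genes had no match there. Alternatives were another scaling, no filter, a fit with the inputs, a replicate block, DESeq2, leaving out each library, other membership rules and other count minimums.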

Additional observations from a re-analysis of the deposited data

Results flagged for a closer look

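Of 51 groups of 4 libraries checked, 5 held a library far from the other 3 by Dixon's criterion, which chance does for about 1 in 20 groups. All clusters of the member genes made up 13.5% of all counts in Pum xRIP 1, against 12.6 to 12.7% in the other Pum xRIP libraries. They made up 5.56% in control xRIP 3, against 5.16 to 5.22% in the other controls. The median share at the most distal end was 3.29% in control xRIP 3, against 0, 0 and 0.244% in the others. End 21 of cac stood at 574 CPM in Pum xRIP 1, against 757 to 789 CPM in the other Pum xRIP libraries. End 8 of CG17754 stood at 17.2 CPM in control xRIP 4, against 66.6 to 70.9 CPM in the other controls.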

How the results depend on the processing

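The numbers of member ends and genes called higher in Pum xRIP than in control xRIP (182 and 90), lower (3 and 4) and with unequal use of ends (43) depended on the processing, and the cause was not tested. Without the filter on low counts, 8 ends were lower and 243 genes differed in use. The fit with the inputs gave 361 ends higher and 34 lower, 149 genes higher and 15 lower, and 413 genes with unequal use. DESeq2 gave 5 ends lower, 159 genes higher and 8 lower. With a share of 20% for membership (444 ends of 148 genes), 25 ends and 12 genes were higher, 0 ends and 0 genes lower, and 4 genes differed in use. Replicate numbers did not pair the samples: same-numbered libraries correlated at 0.002 to 0.033 in their deviations from the group means. With a replicate block, 101 ends were higher, 1 was lower and 8 genes differed in use. Leaving out 1 library at a time gave 56 to 130 ends higher, 1 to 2 lower, 54 to 98 genes higher (55, 55 and 54 without Pum xRIP 1, 3 or 4), 3 to 5 lower and 25 to 55 with unequal use. Among choices made after seeing the data, only genes with 20 counts in 3 libraries of each kind left 24 with unequal use, and membership without the pum input gave 171 ends higher and 3 lower, 87 genes higher and 4 lower, and 40 with unequal use. The mean distal share over libraries (14.5% in Pum xRIP, 0.884% in control xRIP, 24.5% in input) was 29.1, 28.1 and 28.8% with the mean over genes, also chosen after seeing the data. It was 7.76% in control xRIP at a minimum of 100 counts, and 2.79% in control xRIP and 28.6% in input at a 20% share. Leaving out a library gave 11.9 to 17.0, 0.0814 to 1.18 and 23.5 to 26.1%. The leading end share (68.1, 93.1 and 47.0%) was 60.4% in Pum xRIP and 76.0% in control xRIP at 100 counts, 75.3% in Pum xRIP and 42.5% in input at a 20% share, and 48.3% in input with members from the pum and w118 inputs, with ranges of 66.1 to 70.6, 90.9 to 96.2 and 46.6 to 47.4% without a library. No named end changed direction. The 6 higher ones passed in all 12 alternatives applied to them, and Acp24A4, CG17754 and sgll failed in 2, 7 and 8 of them. The fit without the filter was not applied to the named ends. The 6 higher ones had no count in any control xRIP library and passed the filter through their Pum xRIP counts, so their passing is a weak check. Depth limits the xRIP side: 2427 member ends and 226 member genes were not tested, and 751 genes had fewer than 2 clusters to compare.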
